A study of Mus musculus with 4 samples.

Results

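Intergenic NR1D1 peaks that were found in 1 of 2 peak lists from mouse aortic smooth muscle cells are described here. A peak belonged to the set when it shared no base with any peak of the other list and its summit lay outside every RefSeq gene and more than 1 kb from every gene end. The PBS list gave 1286 such peaks (95% Poisson interval 1217 to 1358) and the vasostatin-2 list 2451 (2355 to 2550), together 3737 of the 16193 peaks in both lists. The peaks were chosen by 2 measured values, the overlap between the lists and the position of the summit, so neither is a finding about them.

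NR1D1 (REV-ERB alpha) is a nuclear receptor of the circadian clock that lacks the helix with which other nuclear receptors bring in coactivators, and so acts as a repressor through corepressors. It can bind far from genes, at distal elements that act on promoters over long distances, as well as at promoters. CUT&Tag maps such binding with an antibody that brings a transposase to chromatin, where the enzyme cuts out and tags the DNA beside the bound protein.

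The cells were wild-type primary vascular smooth muscle cells from mouse aorta, kept for 24 h with phosphate-buffered saline (PBS) or with vasostatin-2, a peptide made from chromogranin A. The series holds 4 libraries, 1 with the NR1D1 antibody and 1 with IgG for each treatment, all under the same batch label. Only the NR1D1 pair was used, and IgG was not analysed here. A single library stood for each treatment, so the values carry no replicate error and the treatments could not be tested against each other. Intervals cover counting error or the spread over the peaks of a library, and treatment, culture and library cannot be told apart. Neither the age and sex of the animals nor the number pooled is given in the labels used here.

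The peak lists held 7377 PBS peaks and 8816 vasostatin-2 peaks, and the number of fragments at each summit was recovered from the deposited values. Fragment classes below are counts in each library as sequenced. Judged by the lowest background that the peak caller used in each list, the depth of the vasostatin-2 sample was 1.32 times that of PBS. The totals themselves are not given in the sources used here, nor is whether the background was taken from the NR1D1 or the IgG library. The ratio, and every value scaled by it, is a depth of the NR1D1 libraries only if the floor follows their totals. A peak missing from the other list is a peak that was not called there. It is not a measured level of 0.

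The values that chose the peaks were as follows. Of the 1881 intergenic PBS peaks 68.4% (95% Wilson interval 66.2 to 70.4) had no counterpart, against 64.4% of all PBS peaks. Of the 3048 intergenic vasostatin-2 peaks 80.4% (79.0 to 81.8) had none, against 70.0% of all peaks of that list. Seen from the other side, 27.1% (25.8 to 28.4) of PBS-only peaks were intergenic, where 25.5% of the whole list was. Among vasostatin-2-only peaks 39.7% (38.5 to 41.0) were intergenic, where 34.6% of the whole list was. Shared intergenic peaks numbered 595 as called for PBS and 597 as called for vasostatin-2. Among intergenic peaks with at least 8 fragments after scaling for depth, 44.7% (41.2 to 48.3) of PBS and 42.1% (37.9 to 46.4) of vasostatin-2 peaks had no counterpart, and the intervals overlapped. Counterparts were still looked for in the lists as called at full depth.

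How the intergenic share moved with the strength of a peak differed between the lists. Among PBS-only peaks it was 37.4% (35.0 to 39.8) with 4 to 5 fragments at the summit, 25% with 6 to 8 and 19.6% with 9 to 12. With 13 to 20 fragments it was 14.0% (10.7 to 18.0), or 48 of 344 peaks. The stronger a PBS-only peak was, up to this class, the less often it lay between genes. Among vasostatin-2-only peaks the same classes gave 41.6% (39.5 to 43.6), 38.0%, 38.5% and 47.6% (41.2 to 54.1), the last from 109 of 229 peaks. Here the share did not fall with strength. At 21 or more fragments 6 of 36 peaks of the PBS-only group lay between genes and 10 of 21 of the vasostatin-2-only group, too few for a narrow interval (7.87 to 31.9% and 28.3 to 67.6%).

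**Figure D1:**
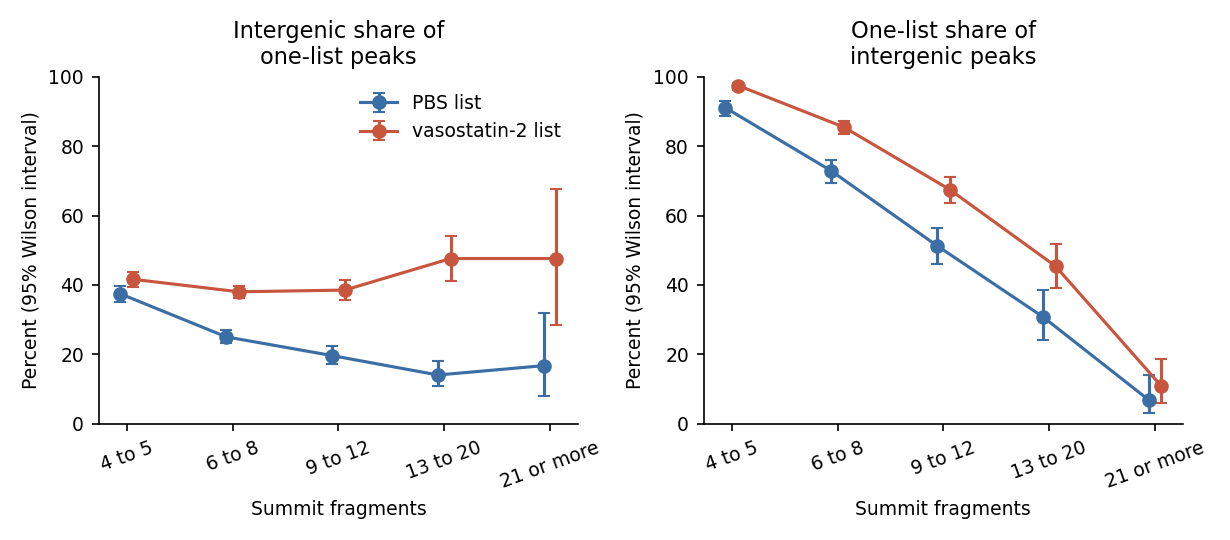
Left, percent of one-list peaks that were intergenic; right, percent of intergenic peaks that were found in 1 list, each by the number of fragments at the summit, with 95% Wilson intervals and 1 library per list. On the left the PBS points go from 37.4% to 14.0% over the first 4 classes while the vasostatin-2 points stay between 38.0% and 47.6%; on the right both lists fall.

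Having a counterpart depended on strength in both lists. With 4 to 5 fragments 91.1% of intergenic PBS peaks and 97.5% of intergenic vasostatin-2 peaks had none, and with 6 to 8 fragments 72.9% and 85.5%. At 13 to 20 fragments the values were 30.8% (24.1 to 38.4) and 45.4% (39.2 to 51.7), and with 21 or more 6.82% and 10.8%. In the first 4 classes the vasostatin-2 value was the higher, and in the last the intervals overlapped.

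The peaks in 1 list were narrow and rested on few fragments. The median summit held 6 fragments in both sets, with a range of 4 to 111 in PBS and 4 to 305 in vasostatin-2, and 95% of peaks had 12 or fewer in each. Summits of 4 to 5 fragments made up 44.8% of peaks in the PBS-only set and 37.8% in the vasostatin-2-only set. Shared intergenic peaks had medians of 10 and 11 fragments. One-list peaks inside genes had a median of 6 in both lists, and those at gene ends 8 in PBS and 6 in vasostatin-2. Summits of few fragments were thus not particular to one-list peaks between genes. The authors' fold enrichment, read within each list, had a median of 4.58 (4.58 to 4.77) and a highest value of 10.6 in PBS, and a median of 4.93 (4.86 to 4.99) and a highest value of 15.3 in vasostatin-2. Shared intergenic peaks reached 39.6-fold and 42.4-fold.

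Median width was 247 bp (243 to 252) for PBS-only and 234 bp (232 to 237) for vasostatin-2-only intergenic peaks, against 315 and 322 bp for shared intergenic peaks. One-list peaks inside genes had similar medians, 253 bp in PBS and 234 bp in vasostatin-2. Those at gene ends measured 301 and 245 bp. The narrowest peak of each list set a floor, at 193 and 181 bp. Width grew with fragments, from 233 bp with 4 to 5 to 320.5 bp (258 to 350) with 13 to 20 in PBS, and from 217 to 284 bp (259 to 300) in vasostatin-2. In the class of 4 to 5 fragments shared intergenic peaks measured 238 bp (228 to 264) and 232 bp (205 to 275), and these intervals overlapped those of the one-list peaks (229 to 239 and 214 to 221). In the class of 13 to 20 they were wider, at 388 bp (356 to 453) and 391 bp (354 to 427). PBS-only peaks at gene ends measured 384 bp (366 to 406) in that class, wider than the PBS-only intergenic peaks, and the 29 vasostatin-2-only peaks at gene ends 305 bp (243 to 360), an interval that overlaps that of the intergenic ones.

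**Figure D2:**
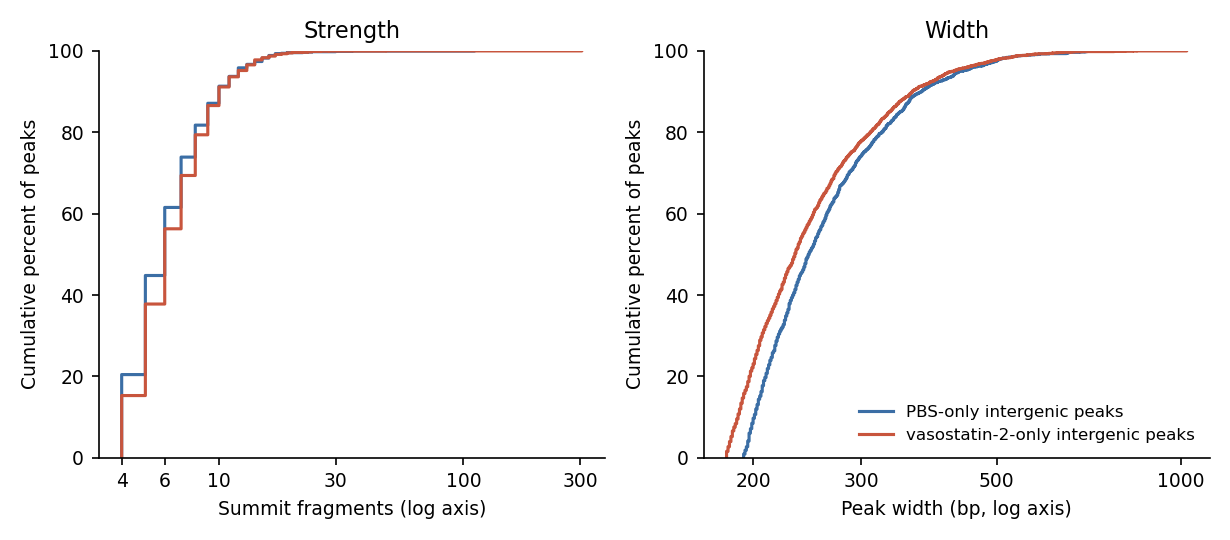
Cumulative percent of PBS-only and vasostatin-2-only intergenic peaks by summit fragments (left) and by width in bp (right), both on log axes, with 1 library per list. The curves for fragments nearly coincide, with a median of 6 in both, and the vasostatin-2 curve for width lies to the left of the PBS curve, with medians of 234 and 247 bp.

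The order of the lists by number of peaks depended on the depth at which they were compared. With vasostatin-2 fragments divided by 1.32, 1525 of its 2451 peaks (62.2%) kept at least 4 fragments, the smallest number in any PBS peak. At least 6 remained for 751 vasostatin-2-only peaks, against 710 PBS-only peaks with 6 or more. At least 8 remained for 218 (8.89%), against 336 (26.1%) of the PBS-only peaks, so that PBS then held more. The intergenic share of one-list peaks kept its order: it was 18.9% (17.1 to 20.8) in PBS and 41.1% (36.9 to 45.3) in vasostatin-2 with at least 8 fragments after this scaling, which changed the cut and not the lists in which counterparts were sought.

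The background around these peaks was lower than around shared ones. The local background of the peak caller, the number of fragments that chance would place at the summit, was at its genome-wide floor for 27.6% of the intergenic peaks in the PBS set and 37.6% in the vasostatin-2 set. Shared intergenic peaks were at the floor in 6.05% and 8.21% of cases. Above the floor the 10000 bp around a PBS-only summit held a median of 21.5 fragments, and around a vasostatin-2-only summit 29, against 35.5 and 44.5 around shared intergenic summits. If IgG served as the control, these are IgG fragments. If the background came from the NR1D1 library, the window also counts the fragments of the peak itself. The comparison was not matched for summit fragments, of which shared peaks had more.

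Intergenic peaks of both sets became sparser with distance from genes. The median distance to the nearest gene was 14524 bp (13166 to 15820) in PBS and 15752 bp (14773 to 16832) in vasostatin-2, with overlapping intervals. Per Mb of intergenic sequence the PBS-only set held 1.59 peaks at 1 to 5 kb from a gene, 0.987 at 10 to 50 kb and 0.402 beyond 100 kb. The vasostatin-2-only set held 2.66, 1.95 and 0.870 at the same distances. In shares, 24.7% (22.4 to 27.1) of the PBS set and 21.6% (20 to 23.3) of the vasostatin-2 set lay at 1 to 5 kb, where 14.3% of the intergenic sequence lies. Beyond 100 kb lay 8.09% and 9.18% of peaks and 18.6% of the sequence. Shared intergenic peaks, as called for PBS, also became sparser, with 0.778 per Mb at 1 to 5 kb and 0.155 beyond 100 kb. Taken whole, the shared peaks lay nearer to genes than the one-list peaks. Their median distance was 11586 bp (10028 to 12937) as called for PBS and 11377 bp (9999 to 12907) as called for vasostatin-2. Both intervals lay below those of the one-list sets. The sets were not matched for summit fragments, of which shared peaks had more. One-list peaks with at least 8 fragments had a median of 9754 bp (7968 to 12397) in PBS. In vasostatin-2 it was 13694 bp (11761 to 14954), and each interval overlapped that of the shared peaks of its list.

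**Figure D3:**
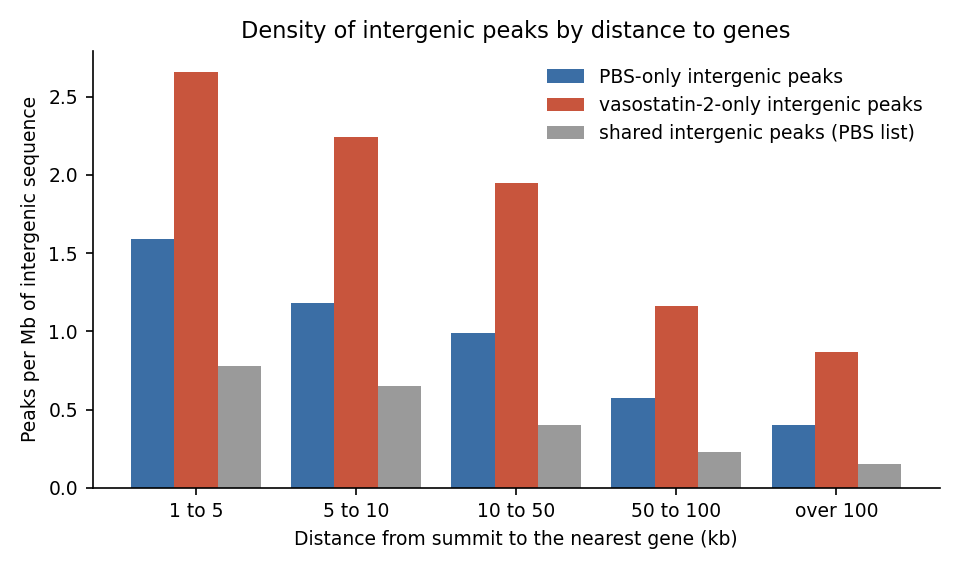
Peaks per Mb of intergenic sequence (over 1 kb from every gene) by distance from the summit to the nearest gene in kb, for PBS-only, vasostatin-2-only and shared intergenic peaks, 1 library per list. All 3 sets fall from left to right, the PBS-only peaks from 1.59 to 0.402 and the vasostatin-2-only peaks from 2.66 to 0.870 per Mb.

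Starts and ends of genes were near these peaks about as often as near intergenic sequence at large. Where strand was known, 337 of 732 PBS-only summits (46.0%, 42.5 to 49.7) and 647 of 1351 vasostatin-2-only summits (47.9%, 45.2 to 50.6) lay on the upstream side, and 47.6% of the intergenic sequence does. At 1 to 10 kb the shares were 46.1% and 45.9%, against 49.0% of the sequence. Strand was missing for 554 and 1100 peaks. The nearest gene was protein-coding for 38.6% and 36.6% of peaks, a long noncoding RNA gene for 34.4% and 35.8%, and a pseudogene for 21.4% and 21.9%. Of all genes in the annotation 43.8% are protein-coding, 25.5% long noncoding and 21.2% pseudogenes. These are shares of genes, and the share of intergenic sequence nearest to each kind was not computed. No peak of either set reached into a promoter window of the RefSeq table, and peak sequences are not shown. The rule had already kept every summit more than 1 kb from gene ends, so this is not a finding about the peaks.

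At the 1 kb limit, the PBS-only peak nearest inside lay 1016 bp from Emilin2 with 6 fragments, and the nearest one outside lay 991 bp from Scamp1 with 4. In the vasostatin-2 list these were a peak 1009 bp from Fam216b with 7 fragments and one 985 bp from Pim1 with 8.

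One-list intergenic peaks were mostly single. In PBS 1226 of 1286 peaks had no other member of the set within 10 kb, and the other 60 (4.67%, 3.64 to 5.96) formed 30 pairs. In vasostatin-2 2332 stood alone, 110 formed 55 pairs and 9 formed 3 groups of 3 (together 4.86%, 4.07 to 5.78). As a measure of density, 1.55% and 3.02% of the intergenic sequence lies within 10 kb of a PBS-only or a vasostatin-2-only member. The nearest member of the same set was at a median of 485 kb in PBS and 245 kb in vasostatin-2.

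A minority of one-list intergenic peaks had a peak of the other list close by without overlap. The nearest peak of the other list was at a median of 69.2 kb (62.0 to 77.7) for the PBS set and 120.2 kb (111 to 127) for the vasostatin-2 set. Of the PBS-only intergenic peaks 43 (3.34%) had the summit of a vasostatin-2 peak within 1 kb and 166 (12.9%, 11.2 to 14.9) within 10 kb, where 4.61% of the intergenic sequence lies that near. Of the vasostatin-2-only peaks 45 (1.84%) had a PBS summit within 1 kb and 191 (7.79%, 6.80 to 8.92) within 10 kb, against 3.32% of the sequence. A shared peak lay within 100 kb of 26.3% of the PBS set and 22.0% of the vasostatin-2 set, and 9.36% of the intergenic sequence is that near to one. Both sets thus lay nearer to other peaks than intergenic sequence as a whole does. That sequence was not matched to the peaks for distance to genes, near which peaks were denser. The PBS list is shorter, so the values against the other list are not comparable between the sets.

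**Figure D4:**
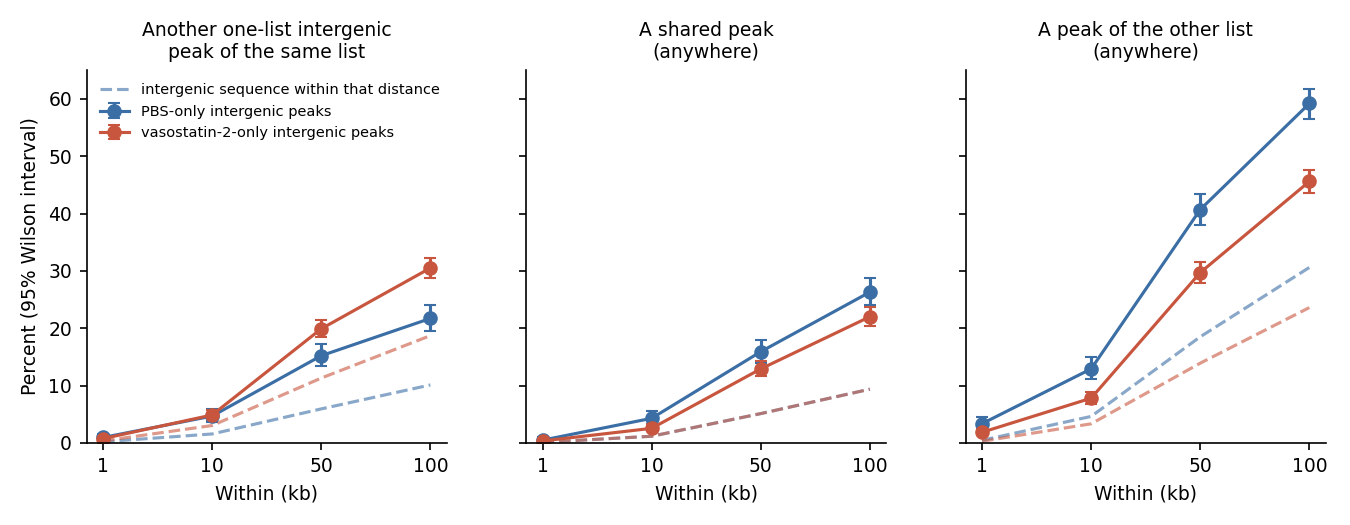
Percent of PBS-only and vasostatin-2-only intergenic peaks with a neighbouring summit within 1, 10, 50 and 100 kb (solid, with 95% Wilson intervals), and percent of intergenic sequence within the same distance (dashed, in the colour of the set). Panels show neighbours in the same set, shared peaks, and all peaks of the other list. Points lie above the dashed lines, as at 10 kb from a peak of the other list with 12.9% and 7.79% against 4.61% and 3.32%.

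The strongest summits included regions of very high background. In PBS 6 of the 1286 peaks had 21 or more fragments, and in vasostatin-2 10 of 2451, and those named here were chosen after their values were seen. Of these 2 and 4 lay within the first 3.5 Mb of a chromosome, near the centromere in mouse, where 0.622% and 0.571% of all members lay. The PBS peak with 111 fragments on chromosome 10 (3111430 to 3111734) had a fold of 2.72 because its background was 40.2 fragments. The vasostatin-2 peak with 305 fragments on chromosome 2 (98662237 to 98662738) had a fold of 2.54 over a background of 119. How reads that fit several places were treated is not given in the sources used here.

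Ranked by fold within the PBS list, with a protein-coding gene end within 100 kb and 1 peak per gene, the first was 33.0 kb downstream of Gng4, a G protein gamma subunit gene, on chromosome 13 (13860677 to 13860997, 10.6-fold, 22 fragments). A peak of 14 fragments and 10.6-fold lay 39.2 kb from Mex3c, which encodes an RNA-binding ubiquitin ligase. The next were 17.9 kb downstream of Pdia4, a protein disulfide isomerase gene (10.1-fold, 16 fragments), and 1244 bp from Omt2a (10.1-fold, 15 fragments). Vapa, an anchor of the endoplasmic reticulum at other membranes, had one 17.8 kb downstream (9.96-fold). Cntn1, a neuronal adhesion gene, had one 7.81 kb upstream (9.81-fold), and Anxa3 and the latrophilin gene Adgrl1 had one at 16.2 and 40.6 kb (9.51-fold and 9.28-fold). All 8 had 12 to 22 fragments and were 221 to 353 bp wide.

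In the vasostatin-2 list the first by the same rule lay 57.8 kb from Gm32936 on chromosome 12 (60375793 to 60376017, 12.9-fold, 19 fragments). Pdia4 followed with a peak 26.0 kb downstream (12.1-fold, 24 fragments), and Cmas, which encodes the enzyme that activates sialic acid, with one 5.78 kb upstream (12-fold, 26 fragments, 551 bp wide). Hecw1, a ubiquitin ligase gene, had one at 34.5 kb (11.1-fold, 20 fragments) and Wscd1 one at 83.8 kb (10.8-fold, 14 fragments). Ifi44l, an interferon-induced gene, had one 1031 bp upstream (10.7-fold), and Rhobtb1 one 15.8 kb upstream (10.6-fold). Gm20914 on chromosome Y completed the 8 (10.5-fold, 14 fragments). The highest fold at any distance, 15.3 with 23 fragments, was also on chromosome Y (20184200 to 20184383), 303 kb from the nearest gene.

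The Pdia4 peaks were a case of neighbouring sites called in different lists. The PBS-only peak on chromosome 6 (47778088 to 47778413) and the vasostatin-2-only peak (47770047 to 47770368) lay 8.04 kb apart between Gm52862 and Rny3, which gives a small Y RNA. The same interval held shared peaks of 13 and 14 fragments and of 13 and 16 fragments in PBS and vasostatin-2. No overlap with the other list therefore did not mean that the neighbourhood was empty in it.

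The widest peaks were not the strongest. In PBS they lay near Wnt7b (726 bp, 11 fragments), Armc12 (707 bp, 11) and Snrpe (702 bp, 9). In vasostatin-2 they lay near Cbln4 (1022 bp, 9 fragments), Clic5 (846 bp, 9) and Nox3 (834 bp, 7). The peaks farthest from any gene had 4 to 10 fragments. In PBS they were 652 kb out with 4 fragments (nearest protein-coding gene Cdh9), 528 kb with 4 (Pcdh9) and 386 kb with 10 (Pcdh10). In vasostatin-2 they were 486 kb out with 5 fragments (Zfp804a), 432 kb with 4 (Gm21805, on Y) and 410 kb with 6 (Rab28).

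Groups were ranked by their number of members and then by their summed fragments. In PBS all groups were pairs, and the first was near AI837181 on chromosome 19 (17 and 23 fragments). The second was beside Malat1 (15 and 13), the gene of an abundant nuclear RNA, and the third between Smad3 and Smad6 (12 and 15). In vasostatin-2 the groups of 3 were upstream of Apba2 on chromosome 7 (14 to 24 fragments each), near Srrm4 (7 to 12) and near Gm17019 (6 to 10), both on chromosome 5. Apba2 encodes an adaptor protein of neurons, and its upstream interval of 89 kb also held another vasostatin-2-only peak of 14 fragments, 1 PBS-only peak of 15 fragments and 3 shared peaks.

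Some loci, described after their values were seen, held one-list peaks from both libraries. Around the noncoding genes Malat1 and Neat1 on chromosome 19, PBS-only peaks of 15, 13 and 30 fragments and vasostatin-2-only peaks of 17 and 19 fragments lay within 9.04 kb of Malat1 or Neat1. The PBS peak of 30 fragments ended at 5809628 on chromosome 19, and the vasostatin-2 peak of 17 began at 5809931. Between Socs5 and Mcfd2 on chromosome 17, around the noncoding gene C330024C12Rik, PBS-only peaks held 10, 11, 7 and 9 fragments and vasostatin-2-only peaks 9, 17 and 7, with no shared peak. The vasostatin-2 peak of 17 fragments ended at 87202229 and the PBS peak of 7 began at 87202357. Between Smad3 and Smad6, PBS-only intergenic peaks of 6, 12 and 15 fragments faced 1 vasostatin-2-only peak of 7. At each of these loci both libraries had one-list peaks, which by the rule did not overlap. Annotated genes lay between some of them, so they did not all share an interval between neighbouring genes.

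Some intervals between neighbouring genes held peaks of both sets. Of 30165 intervals with sequence more than 1 kb from genes, PBS-only peaks fell in 1171 and vasostatin-2-only peaks in 2096. Both fell in 273, which is 23.3% of the first and 13% of the second. These counts were not matched for the length of an interval. Intervals over 500 kb held 5.92% and 6.0% of peaks and 13.1% of the intergenic sequence. The 3 with most members were on chromosome Y. Between Gm20873 and Gm20830 lay 8 PBS-only and 13 vasostatin-2-only peaks, between Gm20914 and Gm20873 8 and 10, and between Gm20815 and Gm21292 2 and 9. Genes of these Y families are near-identical copies, so the positions of peaks beside them are uncertain.

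Chromosomes differed in density beyond counting error. Chromosome 19 held 1.96 PBS-only (1.44 to 2.60) and 3.16 vasostatin-2-only peaks (2.49 to 3.96) per Mb of intergenic sequence, where the whole genome gave 0.921 and 1.76. Chromosome X held 0.292 (0.201 to 0.410) and 0.389 (0.283 to 0.523), and chromosome Y 0.323 and 0.783. Densities were not adjusted for the copy number of a chromosome or for repeated sequence. Of the members on X 57.1% (46.0 to 67.6) were vasostatin-2-only, and of all members 65.6%. Chromosomes 3 and 4 were the lowest autosomes in both sets, at 0.547 and 0.584 per Mb in PBS and 1.20 and 1.22 in vasostatin-2.

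**Figure D5:**
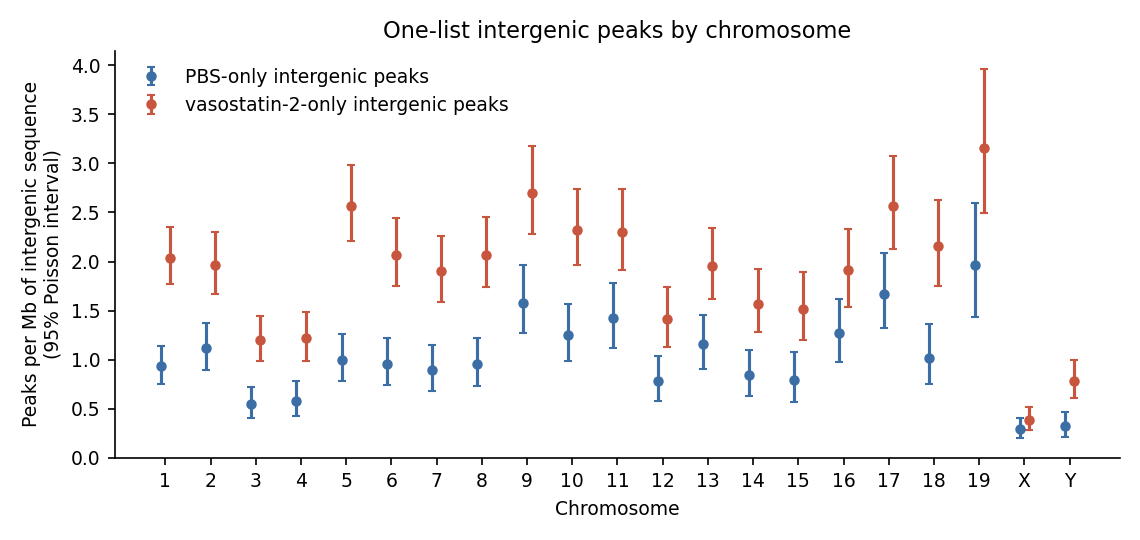
PBS-only and vasostatin-2-only intergenic peaks per Mb of intergenic sequence on each chromosome, with 95% Poisson intervals, 1 library per list. Chromosome 19 is highest in both sets (1.96 and 3.16) and chromosome X lowest (0.292 and 0.389).

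Taking the protein-coding gene end nearest to each summit, 884 PBS-only peaks lay within 100 kb and marked 816 genes, 3.73% of all protein-coding genes. For vasostatin-2-only peaks 1601 marked 1419 genes, or 6.48%. Both sets marked 176 of these, 21.6% of the first and 12.4% of the second. A nearest gene only gives the position of a peak. It does not show which gene a distal site acts on. The gene lists below were chosen with earlier results of these data known, so their shares only describe the lists.

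Of 24 clock genes 1 was marked in PBS (4.17%, 0.739 to 20.2) and 3 in vasostatin-2 (12.5%, 4.34 to 31), and both intervals include the share over all protein-coding genes. Bhlhe41, a repressor of the clock, was marked by both, with 11 fragments 2.12 kb downstream in PBS and 6 fragments 4.95 kb downstream in vasostatin-2. Arntl, the BMAL1 gene and a known target of NR1D1, had a vasostatin-2-only peak 30.6 kb upstream (10 fragments, 5.51-fold, chromosome 7, 113147770 to 113148000), and the nearest PBS-only intergenic peak was 259 kb away. Nfil3 had a vasostatin-2-only peak of 4 fragments at 50.8 kb. Nr1d1 itself had no intergenic one-list peak within 100 kb.

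Genes of TGF-beta, BMP and Notch signalling were marked in 5 of 24 cases in PBS (20.8%, Wilson interval 9.24 to 40.5) and 8 of 24 in vasostatin-2 (33.3%, 18.0 to 53.3), against 3.73% and 6.48% of all protein-coding genes. The counts were not matched for the length of intergenic sequence beside a gene, and the list was chosen with earlier results known. Notch1, a receptor of smooth muscle fate, had a PBS-only peak of 15 fragments 37.4 kb upstream (8.78-fold) and a vasostatin-2-only peak of 12 fragments 28.7 kb upstream (5.11-fold). Smad6, an inhibitor of SMAD signalling, was marked by 3 PBS-only peaks and 1 vasostatin-2-only peak, and Tgfbr2, the type II receptor, by 1 of 4 fragments in each. Id1 and Bmp2 were marked in PBS, and Smad2, Id3, Hes1, Tgfb2 and Smad7 in vasostatin-2. Of the latter Smad2, a transducer of TGF-beta, had the highest fold (6.59, 11 fragments, 64.7 kb away).

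Of 22 contractile genes 1 was marked in each list (4.55%, 0.807 to 21.8), near the background of 3.73% and 6.48%: Tpm1, a tropomyosin, in PBS (5 fragments, 48.7 kb) and Mrtfa, a coactivator of serum response factor, in vasostatin-2 (7 fragments, 20.8 kb). Acta2, Myh11 and Chga had no member within 100 kb of either end. Of 28 matrix and synthetic-state genes 2 were marked in PBS (7.14%, 1.98 to 22.6) and 6 in vasostatin-2 (21.4%, 10.2 to 39.5). Mmp14, a membrane-bound matrix protease, had a PBS-only peak of 9 fragments 1.21 kb downstream, and Sparc, a matrix glycoprotein, one of 10 fragments 8.44 kb upstream. In vasostatin-2 Col4a1, a basement membrane collagen, had one of 10 fragments (7.65-fold, 28.2 kb), Mmp2 one of 11 (6.90-fold, 45.8 kb), Bgn one of 8, and Klf5 one of 6. Klf4 and Col8a1 completed the 6, each with 4 fragments.

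Of 24 inflammatory and NF-kB genes 3 were marked in PBS (12.5%, 4.34 to 31) and 4 in vasostatin-2 (16.7%, 6.68 to 35.9), beside 3.73% and 6.48% of all protein-coding genes. These were Il1r1 (9 and 5 fragments), Nfkb1 (8) and Nlrp3 (8) in PBS. In vasostatin-2 they were Nfkbia, the NF-kB inhibitor (6 and 6), Cxcl12 (6), Ptgs2 (6) and Ccl2, a monocyte chemokine (7 fragments, 2.50 kb). Of 24 lipid and glucose genes 1 (4.17%) and 3 (12.5%) were marked: the elongase gene Elovl3 in PBS (9 fragments, 1.31 kb), and Scd1 (7), Insig2 (4) and Hk2 (4) in vasostatin-2. Of 14 osteogenic genes 2 (14.3%, 4.01 to 39.9) and 4 (28.6%, 11.7 to 54.6) were marked. Sox9, a cartilage factor, had a PBS-only peak of 6 fragments and a vasostatin-2-only peak of 13 fragments at 51.9 and 52.4 kb. The vasostatin-2 peak ended at 112730055 on chromosome 11 and the PBS peak began at 112730188. Enpp1 was marked in PBS, and Tnfsf11, Ank and Runx2 in vasostatin-2.

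Axon guidance and cell adhesion genes were marked in 2 of 38 cases in PBS (5.26%, 1.46 to 17.3) and 10 of 38 in vasostatin-2 (26.3%, 15.0 to 42.0), beside 3.73% and 6.48% of all protein-coding genes, again without matching for intergenic length. Those in PBS were Cntn1 (14 fragments) and Cdh13 (5). Those in vasostatin-2 included Cdh12 (8) and Ncam2 (7 and 5), with Efna5, Cdh4, Robo2, Cdh13, Cdh2, Lrrtm4 and Cntn4 at 4 to 6. Ion channel and calcium genes counted 1 and 2 of 24, Kcna5 (5) in PBS and the calcium release and entry genes Itpr2 (7) and Cacna1c (5) in the other.

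Genes that mark cells other than smooth muscle gave small counts, to be read beside 3.73% and 6.48% of all protein-coding genes. Endothelial genes counted 0 and 1 of 14 (Erg, with peaks of 7 and 5 fragments), macrophage and leukocyte genes 1 and 0 of 14 (Csf1r, 4 fragments) and hepatocyte genes 0 and 0 of 16. Fibroblast genes counted 2 (14.3%, 4.01 to 39.9) and 1 of 14 (7.14%, 1.27 to 31.5), Col14a1 (7) and Thy1 (6) in PBS and Tcf21 (8) in vasostatin-2. Ubiquitously expressed genes counted 3 of 18 in PBS (16.7%, 5.84 to 39.2) and 1 of 18 in vasostatin-2 (5.56%, 0.988 to 25.8). Ywhaz had a PBS-only peak of 6 fragments, and Polr2a, the large subunit of RNA polymerase II, peaks of 10 in PBS and 7 in vasostatin-2 at 17.6 and 17.4 kb. As at Sox9, the Polr2a peaks were neighbours, the PBS peak ending at 69716467 on chromosome 11 and the vasostatin-2 peak beginning at 69716595. Peak lists do not show which cells the DNA came from.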

How the data were processed

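NR1D1 CUT&Tag peaks of 2 libraries were analysed, 1 per treatment. The submitters' processing notes name mm10, Trimmomatic (0.39), BWA (0.7.17) and MACS2 (2.2.7.1), without a role or setting for any of them. The headerless deposited files give start, end and summit, and per the caller's column order the authors' fold enrichment (a ratio to local background), -log10 p and -log10 q. The deposited score repeats -log10 q as a whole number (10 times the value, truncated) and went into no result.

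Summit fragments and background were solved from the deposited fold and -log10 p with the caller's Poisson formula, assuming a pseudocount of 1. A solution within 0.0005 was found for 100% of peaks, and 4 PBS peaks had a second one less than 10 times farther off. The step was tested on simulated peaks. Background floors were 0.310 and 0.381 fragments. Above them the background moved in steps, read as the ends of fragments of 196 and 183 bp counted in a 10000 bp window, which was assumed. Floor over fragment length gave the relative depth of 1.32.

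Gene positions were those of RefSeq for GRCm38.p6 (49943 genes, 21887 protein-coding), with strand from its promoter table for 54.1% of genes and 79.9% of protein-coding genes. Intergenic sequence is the 1393 Mb more than 1 kb from genes and between the first and last gene of a chromosome, which leaves out 3 PBS-only and 2 vasostatin-2-only peaks. Medians carry 95% order-statistic intervals, and shares Wilson intervals; fragments are not unique molecules as far as the sources used here say. The named-gene rule took the 8 highest folds, 3 widest, 3 farthest and 3 largest groups per list, up to 4 genes per list of genes, the 3 shared intervals with most members, and Nr1d1, Arntl, Acta2, Myh11 and Chga. Further members of gene lists were named after their values were seen, and some genes that the rule selects are not reported here. Members, rules and 14 gene lists (298 genes, all found) were chosen with earlier results of these data known. Alternatives changed the overlap, peak threshold, gene distance and windows, and 2 more (a cut on fragments scaled for depth, no chromosome Y) were chosen after seeing the data. Python 3.11.15 was used with scipy 1.17.1 and pandas 2.3.3.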

Additional observations from a re-analysis of the deposited data

How the results depend on the processing

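No paired analysis was possible because each treatment has 1 NR1D1 library, and for the same reason no replicate could be left out. Of 168 recomputed main values 87 stayed within the interval of the reported value, or within 1.5 times a reported count, and 81 did not. Stricter thresholds keep fewer and stronger peaks by construction. For other shifts the cause was not tested. The intergenic share of one-list peaks was higher in vasostatin-2 in all 9 settings computed, whereas the number of peaks and the share of intergenic peaks in 1 list were each higher in 8 of 9. Of the 16 named peaks of highest fold 8 lay over 10 kb from every gene, and 15 remained without chromosome Y. Few fragments per summit limit every count.

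With -log10 q of at least 5, PBS then vasostatin-2, the sets held 208 and 447 peaks, 21.3% and 43.6% of one-list peaks were intergenic, 38.9% and 57.4% of intergenic peaks were in 1 list, the median PBS distance was 12468 bp, widths were 275 and 265 bp, folds 6.84 and 6.91, fragments 10 and 10, 18.8% and 9.84% had a peak of the other list and 0.962% and 3.13% one of the same set within 10 kb, and 156 and 286 genes were marked. With at least 8 fragments the values were 336 and 751 peaks, 18.9% intergenic in PBS, 44.7% and 62.1% in 1 list, 9754 and 13694 bp, widths 280.5 and 264 bp, folds 6.30 and 6.42, fragments 9 and 9, 24.1% and 12.8% near the other list, 6.26% of vasostatin-2 near the same set, and 257 and 492 genes. With at least 8 fragments at the PBS depth (chosen after seeing the data) vasostatin-2 gave 218 peaks, 41.1% intergenic, 42.1% in 1 list, 14177 bp, width 284 bp and fold 7.85. Its median of 13 fragments is a count as sequenced, because only the cut was scaled. In this set 17.4% had a peak of the other list within 10 kb, and 144 genes were marked. PBS gave the values just given.

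Over 10 kb from every gene there were 766 and 1534 peaks, 16.1% and 24.9% of one-list peaks, 82.7% of such vasostatin-2 peaks were in 1 list, distances were 31985 and 31603 bp, 11% and 5.61% had a peak of the other list within 10 kb, and 397 and 727 genes were marked. With protein-coding genes only, 34.7% and 49.2% were intergenic, at 37533 and 44702 bp. With summits within 200 bp in place of overlap, 73.3% and 83.6% of intergenic peaks were in 1 list, 38.4% of vasostatin-2-only peaks were intergenic, and 18.8% and 11.3% had a near peak of the other list. With overlap within 500 bp 10.2% and 6.30% did, and with a limit of 50 kb 40.7% and 29.7% did, while 15.2% and 19.9% had one of the same set.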

Other observations

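Some genes with many members were in no fixed list. Foxo3, a transcription factor of stress resistance, was the nearest protein-coding gene of 2 PBS-only and 2 vasostatin-2-only intergenic peaks, as were Ypel5, Med13l, a subunit of Mediator, and Foxl1. Tbc1d21 had 1 and 4, Slc28a3, a nucleoside transporter gene, 2 and 3, and Magi1, a scaffold of cell junctions, 1 and 3. Rph3a, a vesicle protein gene, had 0 and 4. Gm20914 on chromosome Y had the most, with 4 and 5. These genes were chosen after their values were seen, and the counts were not matched for the length of the interval beside a gene.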
